A study of Mus musculus with 6 samples.

Results

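The stefins and cystatins were followed here over the 3 groups of a microarray study of mouse epidermal basal cells. The members were 6 genes, Stfa1, Stfa3, Csta1, Cstb, Cst3 and Cst6, and every probe set that the platform annotation gives to one of them was taken, which made 7 probe sets of the 45037 on the array that are not controls. Stfa3, Csta1, Cst3 and Cst6 had 1 probe set each and Cstb had 2, with the suffixes _a_at and _at. Stfa1 had none of its own: its probe set lists Stfa1 together with Cstdc5, another stefin A gene, and is given throughout as shared. Each of the 7 was called present on each of the 6 arrays and each passed the detection filter, which left 23017 probe sets in the tests. Stfa1 and Stfa3 were picked by the study from these same arrays for a higher signal in ventral skin of pregnancy, so that direction has no independent support in these data. By quantitative PCR of skin tissue, not of sorted cells, the paper also reported both genes as significantly higher there. It reported the same for Tbx3, Tgm3, Thy1 and keratin 2 (Krt2), against dorsal skin of pregnancy and virgin ventral skin.

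The cells were α6-integrin-positive, propidium iodide-negative keratinocytes sorted from skin of female C57BL/6 mice, and the labels give no transgene or deletion for any group. The groups were ventral skin at 16 days post coitum (16 dpc ventral), dorsal skin at 16 dpc (16 dpc dorsal) and ventral skin of virgin females (virgin ventral), with 2 arrays in each, numbered replicate 1 and 2. The labels give an age of 10 weeks, and virgin dorsal skin was not analysed here. The labels do not tell whether replicates came from separate mice. The p-values thus reflect the spread of these arrays alone, possibly a technical one, and an exact permutation test of 2 arrays against 2 cannot go below p = 0.333 (two-sided).

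Cystatins are proteins that plug the active site of papain-like cysteine proteases, among them the lysosomal cathepsins. The stefins, or type 1 cystatins (stefin A genes and Cstb), lack a signal peptide and work inside the cell, whereas the type 2 cystatins Cst3 (cystatin C) and Cst6 (cystatin M/E) are secreted. In skin, human stefin A is known as a component of the cornified envelope, the cross-linked protein shell of the outermost cells, and cystatin M/E as an inhibitor of cathepsins and legumain in the upper epidermis, whose loss in mice disturbs cornification. Humans have a single stefin A gene, CSTA, whereas the mouse carries a cluster of related copies on chromosome 16, several of them known from neutrophils. Probes of one copy may therefore bind transcripts of another, which was not tested here, and the stefin A signals are uncertain as to which copy they measure. The names are also mixed: the RefSeq gene table gives Stfa3 as an older name of Stfa1.

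How alike these copies are before the gene, though not in the transcript that probes bind, can be read from upstream sequence. The 250 bases before the start were taken for the genes behind the 3 detected stefin A probe sets (RefSeq, GRCm38.p6). They are shown 5′ to 3′ on each gene's own strand, and capitals mark the 4 runs of at least 10 bases that the 4 windows have in common, chosen after the sequences were seen.
Stfa3, chr16:36455393-36455642, minus strand: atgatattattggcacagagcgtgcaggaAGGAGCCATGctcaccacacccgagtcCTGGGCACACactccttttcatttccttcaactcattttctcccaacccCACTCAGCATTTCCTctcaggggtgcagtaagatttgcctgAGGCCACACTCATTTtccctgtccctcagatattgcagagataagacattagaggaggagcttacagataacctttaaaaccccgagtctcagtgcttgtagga
Stfa1, chr16:36276898-36277147, plus strand: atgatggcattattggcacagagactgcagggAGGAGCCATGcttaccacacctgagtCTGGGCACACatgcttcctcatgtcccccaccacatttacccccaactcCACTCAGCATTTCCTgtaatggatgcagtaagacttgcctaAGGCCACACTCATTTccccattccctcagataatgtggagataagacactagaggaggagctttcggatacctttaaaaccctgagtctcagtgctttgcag
Cstdc5, chr16:36367571-36367820, minus strand: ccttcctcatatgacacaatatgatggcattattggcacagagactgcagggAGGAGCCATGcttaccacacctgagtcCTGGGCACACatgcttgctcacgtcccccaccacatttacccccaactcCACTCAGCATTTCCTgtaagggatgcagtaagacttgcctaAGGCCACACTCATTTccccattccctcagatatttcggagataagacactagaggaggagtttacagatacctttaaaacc
Csta1, chr16:36131190-36131439, minus strand: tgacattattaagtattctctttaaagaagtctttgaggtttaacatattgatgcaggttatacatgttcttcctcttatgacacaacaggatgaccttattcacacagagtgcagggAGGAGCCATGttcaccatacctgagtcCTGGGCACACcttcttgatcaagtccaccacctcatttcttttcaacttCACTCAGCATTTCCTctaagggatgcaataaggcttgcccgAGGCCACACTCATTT
Stfa1 and Cstdc5, which share a probe set, had the same base at 96.1% of 229 aligned positions. Stfa3 matched Stfa1 at 85.8% of 246 positions and Csta1 at 81.9% of 160, against 54.6% of 218 for Cst3, the type 2 cystatin on another chromosome. Counted over the whole window, with unaligned bases as unlike, these were 84.4% for Stfa1, 52.4% for Csta1 and 47.6% for Cst3. The windows are offset by their annotated starts: the last marked run ends the Csta1 window but stands well before the end of the others. The whole-window value for Csta1 thus mixes this offset with unlike bases. Of the further cluster genes compared with Stfa3, Csta2 matched at only 55.9% of 213 positions, and the others at 71.2% to 86.3% of theirs. The run CACTCAGCATTTCCT stood in 7 of 32851 promoter windows of the same length (0.0213%), and the 7 genes with it were all of the stefin A cluster. AGGCCACACTCATTT stood in 5 windows (0.0152%), again of cluster genes, whereas the 10-base runs AGGAGCCATG and CTGGGCACAC stood in 29 and 22 windows, most of them of other genes. None of the 4 windows held the TATA box letters TATAAA, the AP-1 motif TGANTCA or the STAT motif TTCNNNGAA on either strand, which stand in 12.4%, 6.75% and 7.02% of all windows. The stretch after the last marked run lies outside the Csta1 window, so the motif search did not cover it for Csta1. Promoter windows of Cstb and Cst6 were not used here.

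The signal used is the MAS5 signal, an intensity in arbitrary units on a linear scale that the authors scaled to one trimmed mean per array. Between 47.1% and 53.3% of probe sets were called present per array, and median signals ran from 60.9 to 78.6. The actin 3′ to 5′ signal ratio, a sign of RNA quality, was 1.78 and 3.90 on replicates 1 and 2 of 16 dpc ventral, 2.04 and 4.47 of 16 dpc dorsal, and 2.46 and 2.15 of virgin ventral cells. The basal keratinocyte markers Krt5, Krt14 and Krt15 were at 22146 or more on every array. The spinous keratin Krt10 was also bright, at 34929 to 50772. With sorted but mixed cells, fewer cells of a type and less RNA per cell cannot be told apart.

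Stfa3 and the shared Stfa1 and Cstdc5 probe set were the members with the widest range. Stfa3 had signals of 8667 and 15631 in 16 dpc ventral, 443.5 and 1279 in 16 dpc dorsal, and 1075 and 3568 in virgin ventral cells. Both 16 dpc ventral arrays lay above the other 4, while the dorsal and virgin groups overlapped. The shared probe set had signals of 2437 and 6643 in 16 dpc ventral, 181 and 564 in 16 dpc dorsal, and 727 and 2329 in virgin ventral cells. Here the 3 groups did not overlap, although the lower 16 dpc ventral array and the higher virgin array were 2437 against 2329. The highest array was 35.25 times the lowest for Stfa3 and 36.65 times for the shared probe set.

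**Figure D1:**
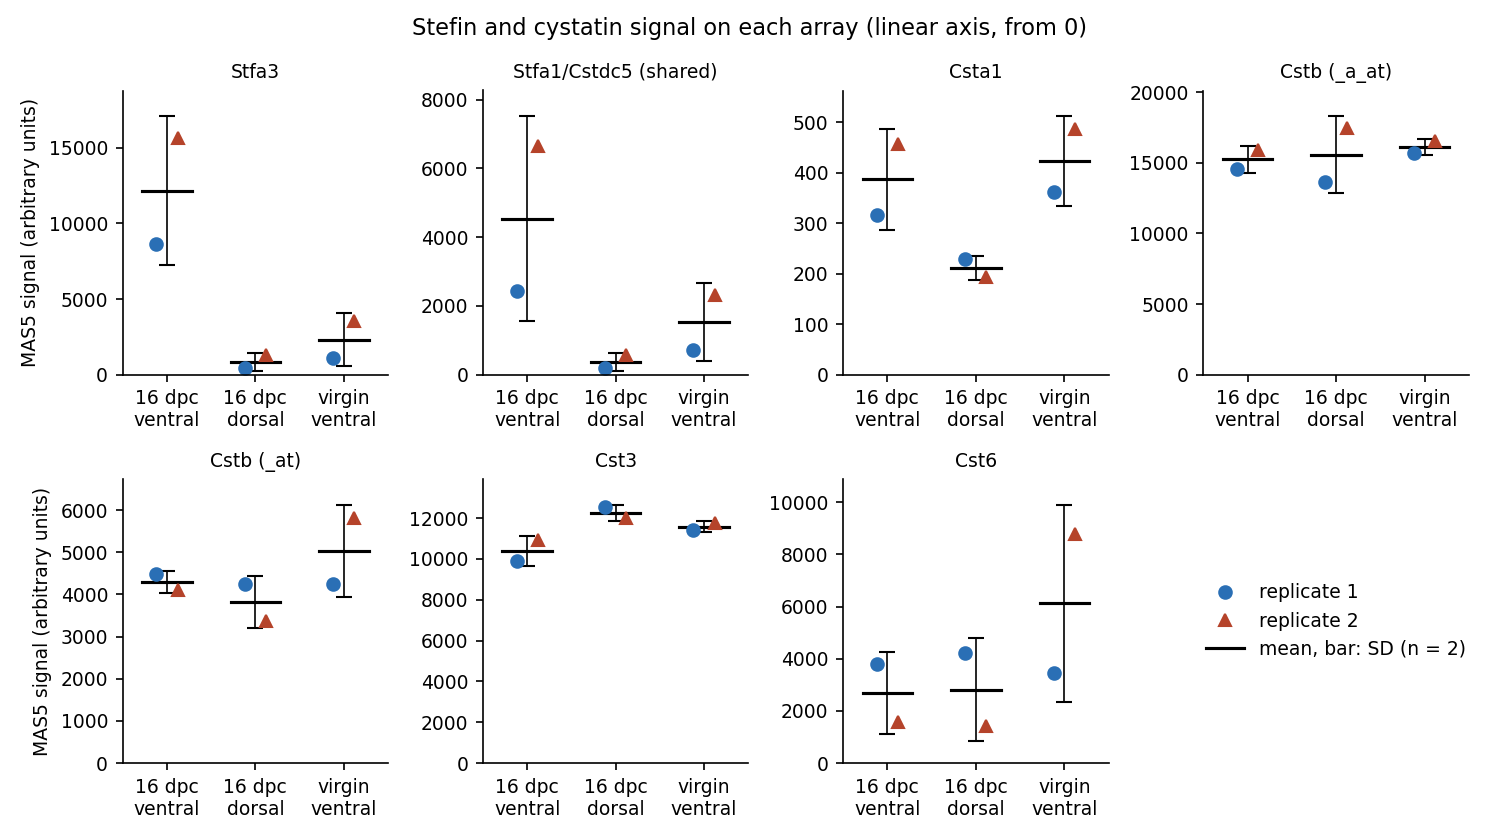
MAS5 signal (arbitrary units, linear axes from 0) of the 7 probe sets in 16 dpc ventral, 16 dpc dorsal and virgin ventral cells, with replicate 1 as circles, replicate 2 as triangles, and the group mean with its SD (n = 2). Stfa3 at 8667 and 15631 and the shared probe set at 2437 and 6643 are highest in 16 dpc ventral cells, whereas both Cstb probe sets and Cst3 span less than 2-fold over the arrays.

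The first comparison asks which members differ in abdominal basal cells between late pregnancy and the virgin state. Stfa3 averaged 12149 ± 4924 in 16 dpc ventral and 2321 ± 1763 in virgin ventral cells (SD, n = 2 each), a ratio of 5.94 from the mean log2 signals (95% confidence interval 1.99 to 17.72). The log2 difference was 2.57 ± 0.67 (SE), and it did not pass the test over all probe sets (adjusted p = 0.499, limma). The shared probe set averaged 4540 ± 2974 in 16 dpc ventral and 1528 ± 1133 in virgin ventral cells, a ratio of 3.09 with an interval from 0.91 to 10.50 (adjusted p = 0.554). Csta1, Cstb and Cst3 stood within 0.21 of 0 on the log2 scale, and Cst6 at -1.16 ± 0.66. In this comparison 0 of 7 members were called, against 0 of 23017 probe sets (0.00%), and 1 member, Stfa3, had an unadjusted p under 0.05, as did 2066 probe sets (8.98%). The groups did not overlap for 3 of the 7 members, namely Stfa3 and the shared probe set, higher, and Cst3, lower, against 43.7% of all probe sets.

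The second comparison asks which members differ between the stretching ventral skin and the dorsal skin of the same stage. Stfa3 averaged 12149 ± 4924 in 16 dpc ventral and 861 ± 591 in 16 dpc dorsal cells (SD, n = 2 each), a ratio of 15.46 (95% confidence interval 5.19 to 46.07, log2 difference 3.95 ± 0.67). The shared probe set averaged 4540 ± 2974 in 16 dpc ventral and 373 ± 271 in 16 dpc dorsal cells, a ratio of 12.58 (interval 3.71 to 42.73, log2 difference 3.65 ± 0.75). Csta1 averaged 387 ± 99.6 in 16 dpc ventral and 212 ± 24.4 in 16 dpc dorsal cells, a ratio of 1.81 (interval 1.14 to 2.86). These intervals lie above 1, but after adjustment over all probe sets 0 of 7 members were called (Stfa3 adjusted p = 0.536, shared probe set 0.757, limma), against 1 of 23017 probe sets (0.00434%). An unadjusted p under 0.05 was found for these 3 members, against 777 probe sets (3.38%). The groups did not overlap for 4 of 7 members, the 3 above and Cst3, against 29.8% of all probe sets.

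Same-numbered arrays of the 3 groups carry one prefix in their column headers, so the differences were also taken within each replicate number. What that prefix stands for is not stated. Stfa3 in 16 dpc ventral cells was 19.54 times the 16 dpc dorsal signal among the arrays numbered 1 and 12.22 times among those numbered 2, and 8.06 and 4.38 times the virgin ventral signal. The shared probe set gave 13.45 and 11.77 over dorsal and 3.35 and 2.85 over virgin cells. The within-number ratios thus lay close together for the shared probe set and farther apart for Stfa3. The group SDs of both were large, as both were higher on replicate 2 than on replicate 1 in each group. Replicate 2 over replicate 1 was 1.80 in 16 dpc ventral, 2.88 in 16 dpc dorsal and 3.32 in virgin ventral cells for Stfa3, and 2.73, 3.11 and 3.20 in the same order for the shared probe set. More than a 1.5-fold excess of replicate 2 in each group was found for these 2 of 7 members and for 183 of 23017 probe sets (0.795%).

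With the replicate number as a block in the limma fit, Stfa3 (adjusted p = 0.00641) and the shared probe set (adjusted p = 0.00204) were called higher in 16 dpc ventral than in 16 dpc dorsal cells. That made 2 of 7 members, against 6 of 23017 probe sets (0.0261%). Over virgin ventral cells the same fit gave adjusted p = 0.055 for Stfa3 and 0.0757 for the shared probe set. Of 7 members 0 were called, against 3 of 23017 probe sets (0.0130%). An unadjusted p under 0.05 was found for 2 members and for 3040 of the 23017 probe sets. These calls over dorsal cells therefore rest on treating the replicate number as a batch shared by all groups. Over all probe sets, same-numbered arrays deviated together between the 16 dpc groups (r = 0.54) but not with the virgin group (r = -0.02 and -0.01).

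**Figure D2:**
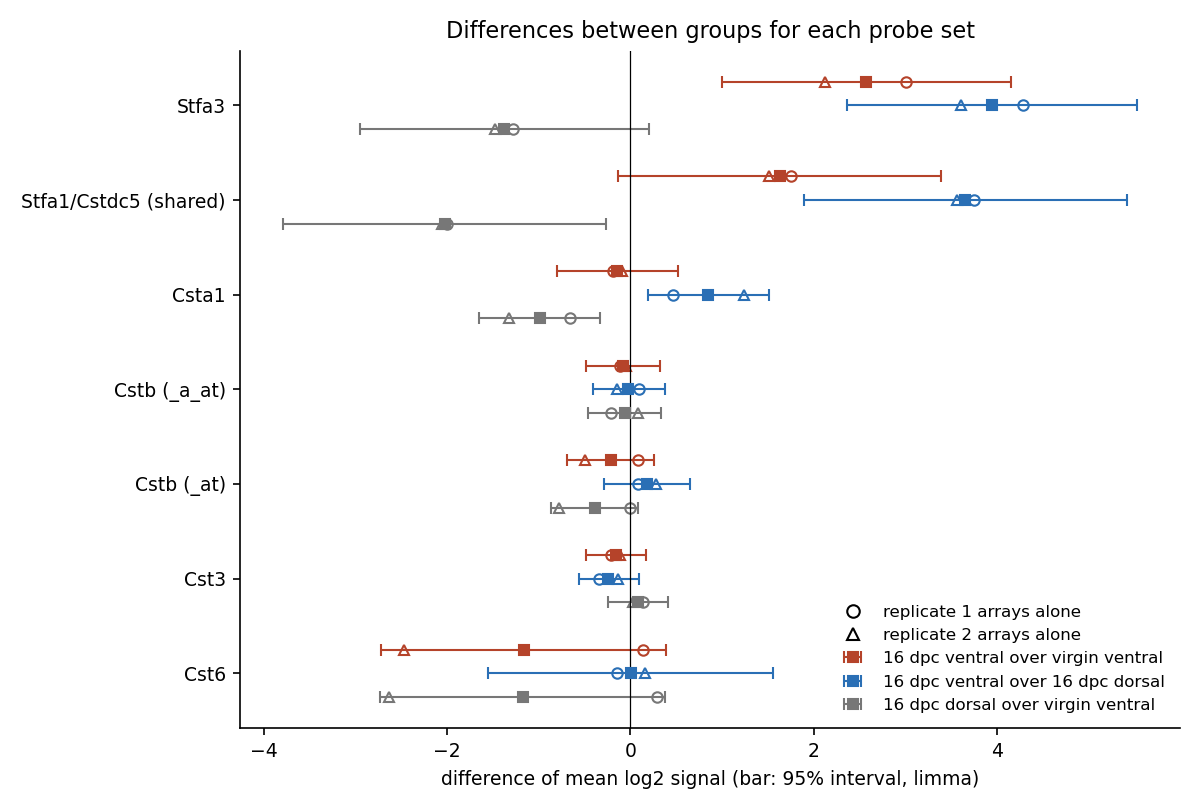
Difference of mean log2 signal for each of the 7 probe sets in the 3 comparisons (filled squares, with the 95% interval of the limma fit without a block), with the difference among arrays of one replicate number as open circles (1) and triangles (2). For Stfa3 and the shared probe set the open symbols sit close to the squares within wide intervals, whereas for Cst6 the replicate 1 and replicate 2 differences over virgin cells have opposite signs, 0.14 and -2.47.

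The third comparison, 16 dpc dorsal over virgin ventral, differs in both site and pregnancy and shares its arrays with the other comparisons. The shared probe set averaged 373 ± 271 in 16 dpc dorsal and 1528 ± 1133 in virgin ventral cells (SD, n = 2 each; log2 difference -2.02 ± 0.75, adjusted p = 0.7, limma). Csta1 averaged 212 ± 24.4 in 16 dpc dorsal and 424 ± 88.4 in virgin ventral cells (log2 difference -0.99 ± 0.28, adjusted p = 0.7). Stfa3 stood at -1.38 ± 0.67, with an interval from -2.95 to 0.20. With virgin ventral replicate 1 or 2 left out, the shared probe set stood at -2.86 or -1.18 and Stfa3 at -2.24 or -0.51. None of the 7 members was called in this fit, against 0.00% of all probe sets, and these 2 probe sets, the shared one and Csta1, had an unadjusted p under 0.05, against 1480 of 23017 (6.43%). With the block the shared probe set came to adjusted p = 0.0544, and 0 of 7 members were called, against 0 of 23017 probe sets. In that fit 3 members had an unadjusted p under 0.05, against 2467 of 23017 probe sets. The groups did not overlap for 4 of 7 members, Csta1, the shared probe set and the _at probe set of Cstb, lower, and Cst3, higher, against 40.2% of all probe sets.

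The stefin A probe sets can be put in order by group. Within both replicate numbers Stfa3 and the shared probe set were highest in 16 dpc ventral, next in virgin ventral and lowest in 16 dpc dorsal cells, which held for 2 of 7 members and 367 of 23017 probe sets (1.59%). For Stfa3 the 16 dpc dorsal and virgin ventral groups overlapped (log2 difference -1.38 ± 0.67). Within replicate numbers 1 and 2 the difference was -1.28 and -1.48, and with the block it had an SE of 0.22 (adjusted p = 0.279, limma). A mean more than 2-fold above both other groups was found for these 2 members and for 98 probe sets (0.426%), a rule close to the one by which the study picked both genes. Csta1 had another order. Its signals were 317 and 458 in 16 dpc ventral, 229 and 194 in 16 dpc dorsal, and 361 and 486 in virgin ventral cells, so that the ventral groups overlapped and both lay above the dorsal arrays. None of its differences passed the test, with adjusted p = 1 for 16 dpc ventral over 16 dpc dorsal and 0.7 for 16 dpc dorsal over virgin ventral cells (limma; 0.892 and 0.377 with the block). The ratio of 16 dpc ventral over virgin ventral cells was 0.91 (95% confidence interval 0.57 to 1.44).

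Cstb, the ubiquitous intracellular stefin B, passed the test in none of the comparisons on either probe set (limma, adjusted p of 0.7 to 1). On the _a_at probe set its signals were 14590.3 and 15929 in 16 dpc ventral, 13631 and 17495 in 16 dpc dorsal, and 15731 and 16516 in virgin ventral cells. All 3 groups overlapped on this probe set. On the _at probe set the signals were 4488 and 4105 in 16 dpc ventral, 4249 and 3375 in 16 dpc dorsal, and 4257 and 5804 in virgin ventral cells. The probe sets did not rank the arrays alike: the first was highest on 16 dpc dorsal replicate 2, on which the second was lowest, and their log2 signals correlated at -0.17 over the 6 arrays. On the _at probe set the log2 difference of 16 dpc dorsal over virgin ventral cells was -0.39 ± 0.20, without overlap. The ratio of 16 dpc ventral over virgin ventral cells was 0.95 (95% confidence interval 0.72 to 1.24) on the first and 0.86 (0.62 to 1.20) on the second.

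Cst3, which encodes the secreted cystatin C, varied least of the members, by 1.27-fold over the 6 arrays. Its signals were 9874 and 10918 in 16 dpc ventral, 12531 and 11979 in 16 dpc dorsal, and 11395 and 11771 in virgin ventral cells. The 16 dpc ventral arrays were the lowest and the dorsal arrays the highest, without overlap. The log2 differences did not pass the test, at -0.16 ± 0.14 for 16 dpc ventral over virgin ventral (adjusted p = 0.716, limma) and -0.24 ± 0.14 for 16 dpc ventral over 16 dpc dorsal cells (adjusted p = 1).

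Cst6, which encodes cystatin M/E, differed more between replicates than between groups. Its signals were 3805 and 1584 in 16 dpc ventral, 4219 and 1415 in 16 dpc dorsal, and 3446 and 8789 in virgin ventral cells. Replicate 1 of the 3 groups lay within 3446 to 4219, whereas replicate 2 was low in both 16 dpc groups and high in virgin cells. The log2 difference of 16 dpc ventral over virgin ventral cells was 0.14 among arrays numbered 1 and -2.47 among those numbered 2, and -1.16 ± 0.66 over both (adjusted p = 0.598, limma). Over 16 dpc dorsal cells it was 0.01 ± 0.66 (95% confidence interval -1.55 to 1.56). Replicate 2 of the 16 dpc groups had the highest actin ratios, 3.90 and 4.47. The summed signal of 14 hair follicle and sebaceous gland markers was also low there: it was 39557 and 17072 in 16 dpc ventral, 36699 and 17570 in 16 dpc dorsal, and 26904 and 37483 in virgin ventral cells. Of these markers 5 were called present on all 6 arrays, and Scd3 and Krt71 on none. Most of the sum was Mgst1, Scd1 and Krt79, and single markers differed. Sox9 was lowest on the same 2 arrays as Cst6, at 225 and 214. Cd34 and Lgr5 were instead lowest on both 16 dpc dorsal arrays, at 68.4 and 53.4 and at 89.5 and 68.0. The part of RNA quality or of follicle and sebaceous gland cells in the Cst6 signal was not tested.

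The stefin A genes lie side by side on chromosome 16, and the array allowed only part of the cluster to be read. In RefSeq order the cluster runs Csta1, Stfa2l1, Cstdc4, Csta3, Csta2, Stfa1, Cstdc3, Cstdc6, Cstdc5, Gm7260, Stfa2, Stfa3, which is 12 genes, of which 7 had a probe set. These were 5 probe sets, 3 of them detected. Stfa2l1 was at 2.4 to 16.6 and called present on 1 array of 6, and the probe set shared by Cstdc4 and Csta2 was at 0.9 to 11.2 and called on none. Signal in the cluster was thus measured at its ends and at the shared probe set in between. Of 5 flanking genes on each side, 8 were tested and 0 were called in any of the 3 comparisons (limma). In the order of the comparisons above, 2, 2 and 1 of them had an unadjusted p under 0.05, against 8.98%, 3.38% and 6.43% of all tested probe sets. The log2 differences of the flanking genes ran from -0.73 (Slc15a2) to 0.88 (Eaf2) for 16 dpc ventral over 16 dpc dorsal cells, against 3.95 for Stfa3. Over virgin ventral cells they ran from -0.09 (Parp9) to 1.84 (Eaf2), with Eaf2 dim, at 9.4 to 75.9, and called present on 3 arrays.

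**Figure D3:**
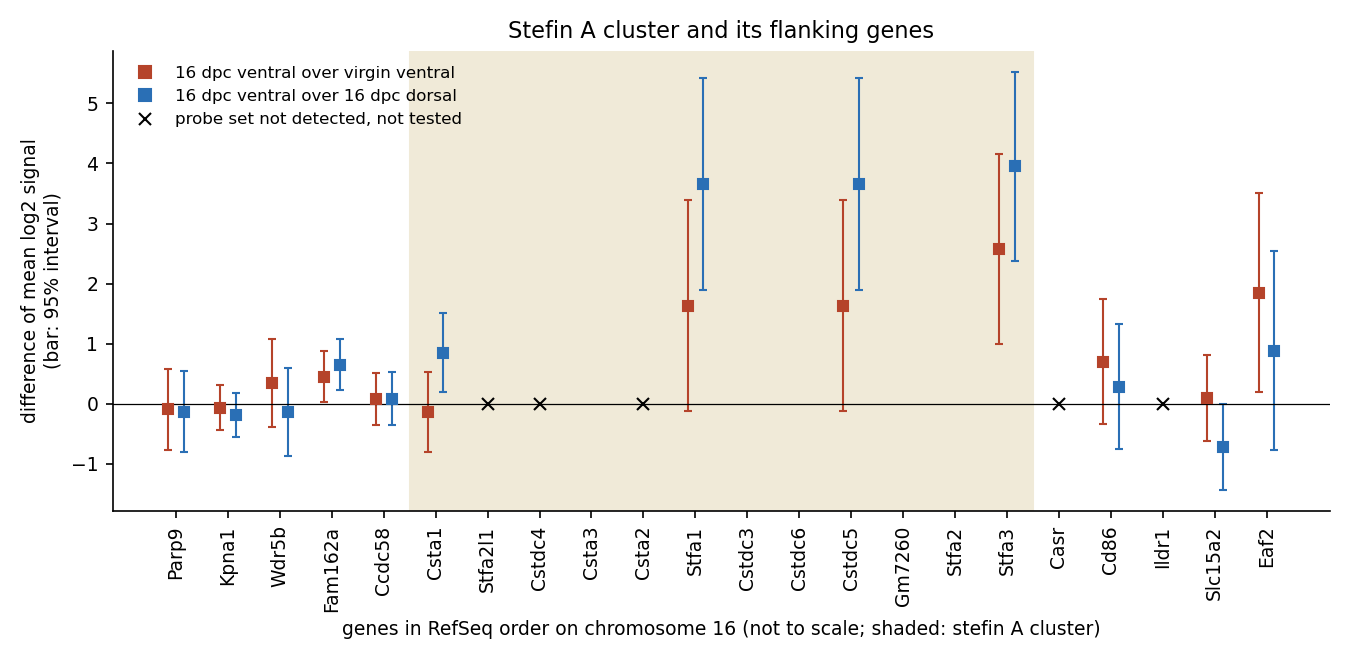
Difference of mean log2 signal (with 95% intervals) of 16 dpc ventral against virgin ventral and against 16 dpc dorsal cells for 22 neighbouring genes in RefSeq order on chromosome 16, not to scale, with the stefin A cluster shaded. Stfa1 and Cstdc5 show one shared probe set drawn at both genes, crosses mark probe sets not detected, and cluster genes with no symbol had no probe set. The genes on both sides stay between -0.73 and 1.84 while Stfa3 reaches 2.57 and 3.95.

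Other members of the cystatin superfamily were mostly at background. Of 26 further family genes 15 had a probe set and 2 passed the detection filter. Fetub, a plasma cystatin also known as fetuin-B, had signals of 82.3 and 98.6 in 16 dpc ventral, 115 and 82.3 in 16 dpc dorsal, and 162 and 111 in virgin ventral cells. Ngp, a cystatin-like protein of neutrophil granules, was called present on 4 arrays, at 37.8 to 116.5. Neither was called in any comparison.

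No protease that cystatins bind passed the test. Of 11 papain-like cysteine cathepsins with legumain 9 were tested, and 0 were called in any of the 3 comparisons (limma). An unadjusted p under 0.05 was found for 1, 0 and 2 of them, against 8.98%, 3.38% and 6.43% of all tested probe sets. The median log2 difference over the 9 was -0.06 for 16 dpc ventral over virgin ventral cells, against -0.03 over all tested probe sets, and -0.08 over 16 dpc dorsal cells, against -0.03. Cathepsin S (Ctss), a protease of antigen presentation, had signals of 843 and 651 in 16 dpc ventral, 917 and 882 in 16 dpc dorsal, and 511 and 361 in virgin ventral cells. Both 16 dpc groups lay above the virgin arrays, with log2 differences of 0.79 ± 0.24 for ventral (adjusted p = 0.499, limma) and 1.07 ± 0.24 for dorsal cells (adjusted p = 0.7). The summed signal of 11 Langerhans and other antigen-presenting cell markers ran likewise from 9527 to 12726 in 16 dpc ventral, 11215 to 12582 in 16 dpc dorsal and 7759 to 8363 in virgin ventral cells, with 7 of them called present on all 6 arrays and 0 absent on all. Epcam, the brightest of these markers by mean, did not follow that order. It was at 3480 and 2908 in 16 dpc ventral, 4247 and 4294 in 16 dpc dorsal, and 3090 and 5138 in virgin ventral cells. H2-Aa and H2-Eb1, the next brightest, were higher on each 16 dpc array than on either virgin array. The part of such cells in the Ctss signal was not tested. Ctsc, an activator of granule proteases, stood at 0.44 ± 0.19 over virgin ventral cells, Ctso at 0.26 ± 0.21 and legumain (Lgmn) at -0.55 ± 0.35. Of the cathepsins that cystatins do not bind, Ctsd stood at -0.08 and 0.14 and Ctsa at -0.07 and -0.02 over virgin ventral and 16 dpc dorsal cells.

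Human stefin A is known to be cross-linked into the cornified envelope by transglutaminases, and of 5 of these enzymes with a probe set 3 were tested, with 0 called in any comparison. Tgm3, the epidermal transglutaminase and another gene that the study picked from these arrays, had signals of 5648 and 6037 in 16 dpc ventral, 1464 and 964 in 16 dpc dorsal, and 2035.5 and 1939.9 in virgin ventral cells. Both 16 dpc ventral arrays lay above the other 4. Its log2 difference was 1.55 ± 0.21 over virgin ventral (adjusted p = 0.206, limma) and 2.30 ± 0.21 over 16 dpc dorsal cells (adjusted p = 0.136, and 0.034 with the replicate block). Tgm1 stood at -0.81 ± 0.43 and -0.29 ± 0.43, and Tgm2 at -0.25 ± 0.63 and 0.11 ± 0.63, in the same comparisons. Of 13 tested precursors of the envelope 0 were called in any comparison (limma). An unadjusted p under 0.05 was found for 3, 0 and 6 of them, against 8.98%, 3.38% and 6.43% of all tested probe sets. Over virgin ventral cells 5 precursors had a positive and 8 a negative log2 difference, with a median of -0.31, and over 16 dpc dorsal cells 3 and 10, with a median of -0.22. The named precursors went both ways over virgin ventral cells: Lce1d at 1.29 ± 0.38, Lor (loricrin) at -0.79 ± 0.23, Flg (filaggrin) at -1.43 ± 0.52 and Evpl (envoplakin) at -0.31 ± 0.14, none of them past the test.

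Of 8 tested genes of activated keratinocytes 0 were called in any comparison (limma). An unadjusted p under 0.05 was found for 2, 0 and 1 of them, against 8.98%, 3.38% and 6.43% of all tested probe sets. Their median log2 differences were -0.26 against virgin ventral and 0.22 against 16 dpc dorsal cells. Krt16, a keratin of wounded and hyperproliferative epidermis, had signals of 738 and 742 in 16 dpc ventral, 306 and 693 in 16 dpc dorsal, and 289 and 326 in virgin ventral cells (log2 difference over virgin 1.27 ± 0.37, adjusted p = 0.499, limma). Krt6a, its usual partner, had 1229 and 933 in 16 dpc ventral, 248 and 468 in 16 dpc dorsal, and 189 and 1221 in virgin ventral cells, and its ventral groups overlapped. S100a8, an alarmin of keratinocytes and neutrophils, was low on every array, at 43.0 to 262.7, with its highest signal on a virgin array. Il1b stood at -0.98 ± 0.38 over virgin ventral cells.

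**Figure D4:**
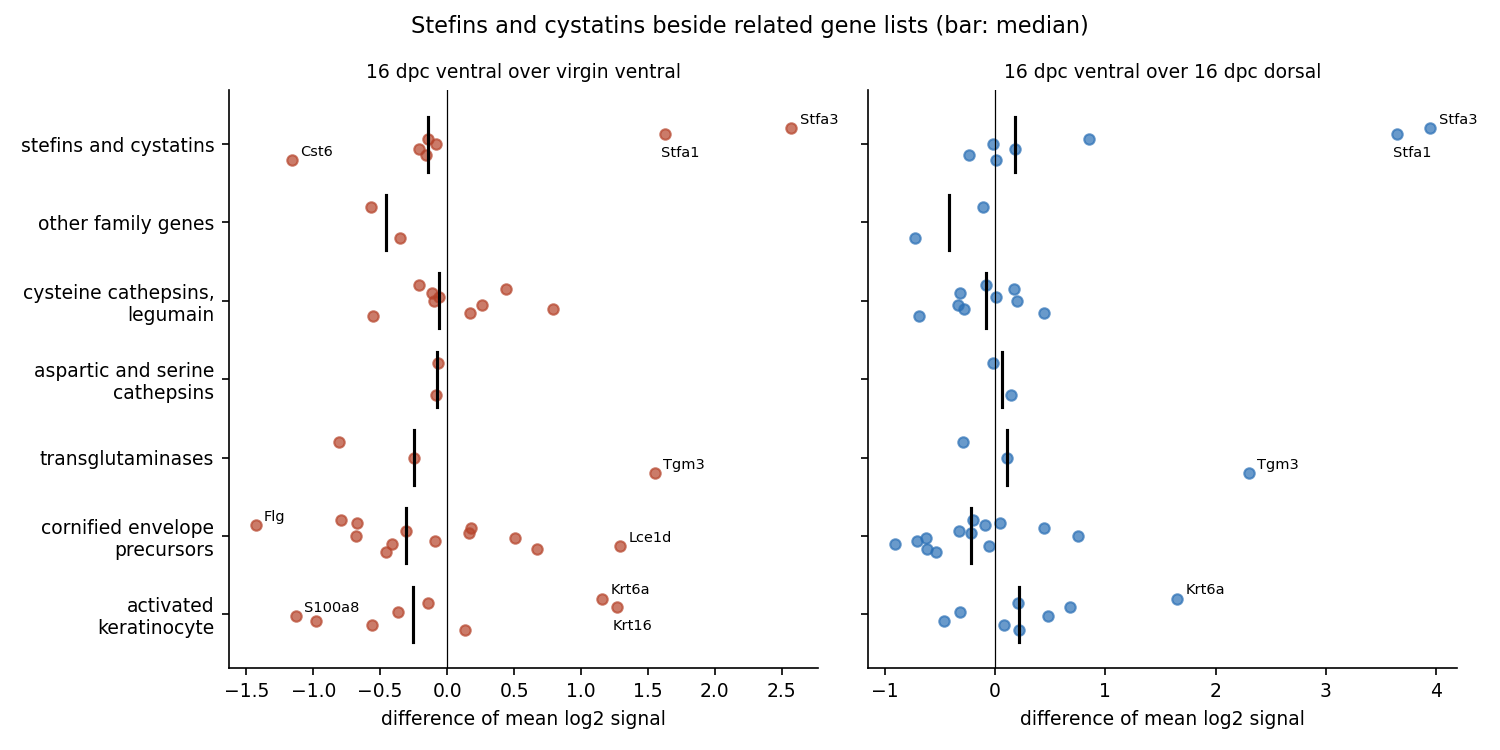
Difference of mean log2 signal of 16 dpc ventral cells over virgin ventral cells (left) and over 16 dpc dorsal cells (right) for the 7 stefin and cystatin probe sets and the tested genes of 6 related lists, 1 point per probe set and a bar at each median. Genes beyond 1 log2 unit are named, and the point named Stfa1 is the probe set shared with Cstdc5. Stfa3 at 2.57 and 3.95 lies farthest out, with Tgm3 at 1.55 and 2.30, while the cysteine cathepsins stay within -0.69 and 0.79.

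Because several stefin A copies are known from neutrophils, the markers of that cell were read on the same arrays. Of 18 markers of neutrophils and other granulocytes 15 had a probe set, and 9 of these were called absent on all 6 arrays, namely Mpo, Elane, Prtn3, Camp, Csf3r, Cxcr2, Mmp8, Cd177 and Trem1. Il1r2 and Lyz2 were called present on all 6. Lyz2, a lysozyme of macrophages and granulocytes, had signals of 549.7 and 252.7 in 16 dpc ventral, 862 and 1214 in 16 dpc dorsal, and 198 and 299.6 in virgin ventral cells. Mmp9, a gelatinase of neutrophils and other cells, was called present on 3 arrays, at 72.2 and 59.8 in 16 dpc ventral, 167 and 211 in 16 dpc dorsal, and 72.0 and 7.7 in virgin ventral cells. Both were highest in 16 dpc dorsal cells. The summed signal was 9989 to 11140 in 16 dpc ventral, 7626 to 8176 in 16 dpc dorsal and 9118 to 9136 in virgin ventral cells. Most of it was Il1r2, an interleukin-1 decoy receptor that keratinocytes also make. Its signals were 8960 and 10534.5 in 16 dpc ventral, 6334 and 6259 in 16 dpc dorsal, and 8416 and 8352.5 in virgin ventral cells. Il1r2 was thus highest in 16 dpc ventral and lowest in 16 dpc dorsal cells, unlike Lyz2 and Mmp9. The part of granulocytes in the stefin signals was not tested. Ngp and Camp are also in the list of further family genes.

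Markers of other cell types were summed in the same way. The summed signal of 7 epidermal T cell markers was 3580 to 4610 in 16 dpc ventral, 1835 to 2868 in 16 dpc dorsal and 720 to 757 in virgin ventral cells. Most of it was Thy1, at 3086 and 4216 in 16 dpc ventral, 1347 and 2235 in 16 dpc dorsal, and 402 and 457 in virgin ventral cells, a surface glycoprotein that the study picked as well. Of the 7, Cd3e, Cd3d, Il2rb and Klrk1 were absent on all 6 arrays, and 3 were present on all. The summed signal of 9 mammary epithelium markers was 8456 and 1281 in 16 dpc ventral, 577 and 861 in 16 dpc dorsal, and 909 and 1450 in virgin ventral cells, with Lalba absent throughout and Csn2, a milk casein, at 6185 and 699 in 16 dpc ventral, 204 and 348 in 16 dpc dorsal, and 172 and 2.3 in virgin ventral cells. Csn2 was thus higher on both 16 dpc ventral arrays than on any array of the other groups, and highest on replicate 1. The list went both ways over virgin ventral cells. The caseins Csn1s1 and Csn3 had log2 differences of 3.40 ± 0.80 and 1.41 ± 0.78. The keratins Krt7, Krt8 and Krt18 stood at -0.83 ± 0.37, -3.33 ± 1.01 and -1.95 ± 0.57. The sums for 9 fibroblast markers were 2973 to 3169 in 16 dpc ventral, 1592 to 2402 in 16 dpc dorsal and 2980 to 4759 in virgin ventral cells, with 3 markers (Lum, Pdgfra and Pdgfrb) called absent on all arrays. Those for 7 melanocyte markers ran from 688 to 843 over all arrays, with 4 absent on all. The 10 spinous and granular markers summed to 114259 to 124197 in 16 dpc ventral, 116136 to 136724 in 16 dpc dorsal and 137304 to 138308 in virgin ventral cells, and the 10 basal markers to 174833 to 199605, 168983 to 241985 and 188794 to 195763. Most of the spinous and granular sum was Krt10, Krtdap, Sbsn and Krt1. Krt2 was at 1899 and 1252 in 16 dpc ventral, 306 and 207 in 16 dpc dorsal, and 386 and 484 in virgin ventral cells. Its log2 difference was 1.83 ± 0.29 against virgin ventral and 2.62 ± 0.29 against 16 dpc dorsal cells. Neither passed the test (adjusted p = 0.251 and 0.163, limma). In these comparisons Krt1 stood at 0.00 and -0.05, Ivl at -0.67 and 0.04, and the list's other markers were negative in both. The part of these cells in the stefin signals was not tested.

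The probe sets with a pattern most like each member were taken from 7610 that passed the filter and spanned at least 1 log2 unit. Pearson's r here is over 6 arrays and describes them, and with so many candidates high values were bound to be found. Stfa3 and the shared probe set correlated at 0.97 with each other. The 5 most like Stfa3 were Zfhx2 (0.989), Igfbp7 (0.988), Guca2a (0.984), Igfbp5 (0.982) and Mastl (0.976). Igfbp7 and Igfbp5 encode binding proteins of insulin-like growth factors. Igfbp5 had signals of 473 and 588 in 16 dpc ventral, 49.6 and 97.5 in 16 dpc dorsal, and 121 and 319 in virgin ventral cells. The 5 most like the shared probe set were Ccne1 (0.994), Fancd2, Ecscr and Trp53inp2 (each 0.993) and Mastl (0.992). Among these Ccne1 encodes cyclin E1 of the G1 to S transition, Fancd2 a DNA repair protein and Mastl the mitotic kinase Greatwall, and their ranges were narrower, with Ccne1 at 207 and 278 in 16 dpc ventral, 100.5 and 137 in 16 dpc dorsal, and 135 and 212 in virgin ventral cells.

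For Csta1 the most like were Samd4 (0.968), Paqr8 (0.966), Snd1 (0.964), a second Paqr8 probe set and Gm9725 (0.953). For Cst6 they were Tmod3 (0.996), Id4 (0.993), Kdm5c and Stk35os1 (each 0.991) and Nbea (0.989). Id4, an inhibitor of basic helix-loop-helix factors, had signals of 416 and 267 in 16 dpc ventral, 422 and 269 in 16 dpc dorsal, and 400.4 and 684 in virgin ventral cells, low on the same 2 arrays as Cst6. The _a_at and _at probe sets of Cstb spanned 0.36 and 0.78 log2 units and Cst3 spanned 0.34. The most like the _a_at probe set of Cstb were 4930442L01Rik (0.998), Ptprz1 (0.996), Zfp358 (0.995), Orly (0.986) and Smu1 (0.982), and the most like Cst3 were Hoxa2 (0.986), Stxbp6 (0.984), Neurl1a (0.969), Bcl9 (0.965) and Rasgrf1 (0.955). Hoxa2, a homeobox gene of anterior body position, had signals of 90.2 and 121 in 16 dpc ventral, 215 and 175 in 16 dpc dorsal, and 142 and 149.8 in virgin ventral cells, a wider range than that of Cst3. Among members, Cst6 and the _at probe set of Cstb correlated at 0.91, and Stfa3 and Cst3 at -0.78.

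**Figure D5:**
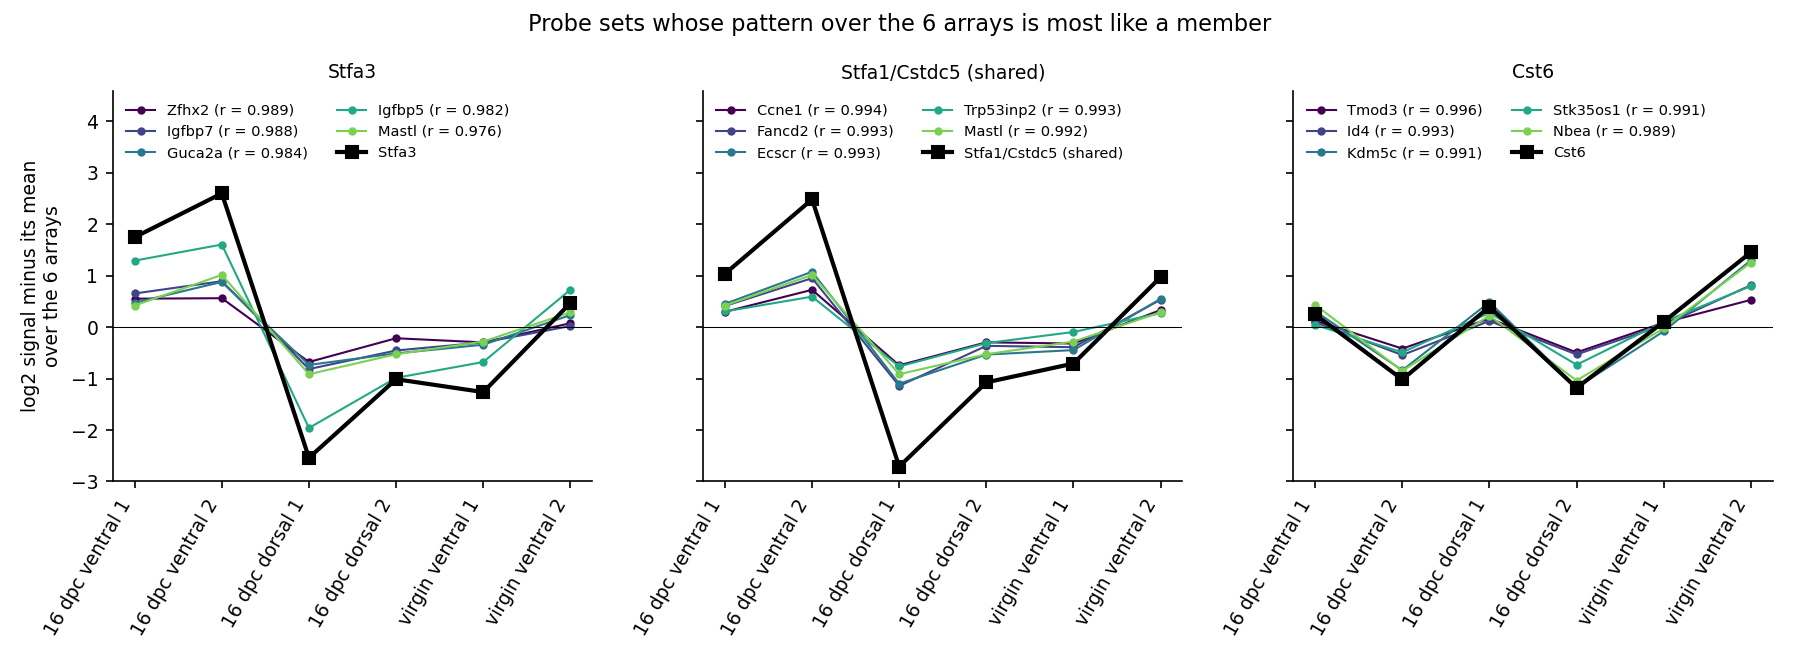
Log2 signal on each of the 6 arrays minus the probe set's mean over them, for Stfa3, the shared Stfa1 and Cstdc5 probe set and Cst6 (black squares) and the 5 probe sets most like each (coloured lines, with Pearson's r over the 6 arrays). In the stefin panels the black lines are highest on both 16 dpc ventral arrays and each line is lowest on 16 dpc dorsal replicate 1, whereas the Cst6 panel is low on replicate 2 of both 16 dpc groups and highest on virgin ventral replicate 2.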

How the data were processed

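RNA of the sorted basal cells was hybridised to 6 Affymetrix 3′ expression arrays. The deposited files give a linear signal intensity and a detection call for each probe set. Per the submitters' processing notes the values came from Affymetrix Expression Console 1. The deposited intensity behaves as MAS5 output scaled to a trimmed mean of 500.0 on each array. Such scaling hides any change in total RNA, and degraded RNA lowers the signal of probes far from the 3′ end. The sources used here name no genome build for the files.

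Groups came from the sample labels. The gestation day is that of the labels, since the column headers give a day that differs a little. Gene symbols came from the platform annotation: 34945 probe sets name 1 gene, 932 several and 9160 none. Signals below 1 were raised to 1 before log2. The 23017 probe sets present on both arrays of any group were tested with limma 3.58.1 (functions lmFit and eBayes, trended) in R 4.3.3, with 2 arrays in each of 3 groups in 1 fit (3 residual degrees of freedom), as a two-sided test whose p-values were adjusted by Benjamini-Hochberg over the 23017, with a threshold of 0.05. Precision is limited by the number of arrays, and the dimmest present call per array lay between 6.34 and 11.28. The fit was tested on simulated data. Over all probe sets, the deviations of same-numbered arrays correlated at 0.54 between the 16 dpc groups and at -0.02 and -0.01 between these and the virgin group, so same-numbered arrays deviated together between the 16 dpc groups and not with the virgin group, and the replicate block was run as an alternative beside the others listed in the closing section.

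The members and gene lists were chosen with earlier results of these data known. Genes named besides the members were mostly set by rule: those called, filled to 4 per list by smallest p in the comparisons with 16 dpc ventral cells on top, 3 per marker list by mean signal, and the 5 probe sets most like each member. Not all of the marker genes that this rule gave are named in the text. Markers absent on all arrays, Scd3, Krt71, Sox9, Cd34, Lgr5, Krt2, Csn3, Krt8, Krt18, the flanking genes and cluster genes are named outside that rule. Promoter windows were aligned with Biopython 1.88 (match 1, mismatch -1, gap opening -3, extension -0.5).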

Additional observations from a re-analysis of the deposited data

How the results depend on the processing

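Over 14 alternatives (288 values of single probe sets), 270 kept their direction and side of the threshold, 7 passed it where they had not, 0 lost it and 11 changed sign. The count of members called stayed at 0 in each comparison with 1 probe set per gene (which leaves out the shared probe set, and where 22, 9 and 0 of 10993 genes were called), no detection filter, presence on all 6 arrays, quantile normalization, an offset of 16, eBayes without a trend, or any 1 array left out (0 to 0). With the replicate block it was 2 for 16 dpc ventral over 16 dpc dorsal cells, and the block changed no other call. Without replicate 2 of both 16 dpc groups, the arrays of high actin ratio (chosen after seeing the data), it was 1 for 16 dpc ventral over virgin ventral (Stfa3), 2 for 16 dpc ventral over 16 dpc dorsal and 2 for 16 dpc dorsal over virgin ventral cells (Stfa3 and the shared probe set). That fit assumes that the lone 16 dpc arrays vary like the virgin ones, and it called 214, 40 and 123 of 23017 probe sets. With 1 array left out, Stfa3 ran from 1.71 (virgin ventral replicate 1 out) to 3.44 (virgin ventral replicate 2 out) on the log2 scale over virgin ventral and from 3.19 (dorsal replicate 1 out) to 4.71 (dorsal replicate 2 out) over 16 dpc dorsal cells, and the shared probe set from 0.79 to 2.47 and from 2.83 to 4.47 with the same arrays left out. For 16 dpc dorsal over virgin ventral cells Stfa3 ran from -2.24 to -0.51 and the shared probe set from -2.86 to -1.18, with virgin ventral replicate 1 out at the low and replicate 2 out at the high end. The sign changes were all of log2 differences near 0 or of Cst6. In 16 dpc ventral over 16 dpc dorsal cells, the _a_at probe set of Cstb was at 0.04 with quantile normalization, at 0.10 without the arrays of high actin ratio and between -0.20 and 0.16 with 1 array left out, and Cst6 was at -0.15 without those arrays and between -0.78 and 0.80 with 1 left out. With 1 array left out, Csta1 ran from -0.40 to 0.13 and the _at probe set of Cstb from -0.44 to 0.01 over virgin ventral cells, and the _a_at probe set of Cstb from -0.24 to 0.12 for 16 dpc dorsal over virgin ventral cells. The cause was not tested. The stefin A values are limited further, because a probe set may also bind transcripts of similar copies, and probe sequences were not compared here.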
